A study of Mus musculus with 12 samples.

Results

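The genes described here were Vcan, which encodes the core protein versican, 5 proteases that cleave versican (Adamts1, Adamts4, Adamts5, Adamts9 and Adamts15) and 4 enzymes that build or sulfate its chondroitin sulfate chains (Xylt2, Csgalnact1, Chsy1 and Chst11). These 10 genes were matched by symbol among the 55471 genes listed. Vcan was chosen by its measured counts and TPM, which differed between groups, and the other 9 for their known roles around it with their values known, so the differences between groups are given as a description with no p-value. The comparison asked whether the makers and cleavers of the proteoglycan moved with Vcan.

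Versican is a large proteoglycan of the extracellular matrix whose core protein binds hyaluronan and carries long chondroitin sulfate chains. Chains are started on serines of the core protein by a xylosyltransferase, extended by N-acetylgalactosaminyltransferases and chondroitin synthases, and sulfated by sulfotransferases in the Golgi. Secreted ADAMTS metalloproteases cut the core protein, which is how versican is cleared from matrix. In the gut, versican is best known from the stroma and from inflamed tissue.

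RNA of colonic crypts from 12 C57BL/6J mice, 3 in each of 4 groups, was sequenced in bulk with 1 library per mouse. All 4 groups carried floxed alleles of p53 (Trp53). CBPWTp53-floxed mice had normal CBP, a histone acetyltransferase encoded by Crebbp, and intact p53. CBPAAp53-floxed mice carried a knock-in in which serines of CBP that are normally phosphorylated were replaced with alanines in all tissues. In CBPWTp53ΔIEC and CBPAAp53ΔIEC mice, Villin-Cre, active in epithelial cells along the intestine, deleted Trp53 in mice of either CBP genotype. The methods of the study describe the isolation of colonic crypts with EDTA from 8-week-old female mice.

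The counts of a library summed to 11177430 to 18029125 reads, and 14610 genes, 5 of the 10 described here among them, passed the filter on low counts. Trp53 had 23.3 to 33.5 TPM (a level scaled to gene length and library size) in the 6 p53-floxed libraries and 3.26 to 6.13 TPM in the 6 p53ΔIEC libraries, as the labels state. All 15 epithelium markers passed the filter. Of 18 stroma markers 3 did (Pdgfrb, Vim and Thy1), and the list summed to between 5.06 and 9.61 TPM in each library. CBPAAp53-floxed replicate 2, CBPWTp53ΔIEC replicate 1 and CBPAAp53ΔIEC replicate 3 stood apart from the rest of their groups and correlated across genes with one another at r = 0.981. Genes typical of the small intestine summed to 22114 TPM in CBPWTp53ΔIEC replicate 1 and to 3620 and 2695 TPM in the other mice of its group. The sums were 7059, 7266 and 13338 TPM in CBPAAp53-floxed replicates 1 to 3, highest in a library that did not stand apart. They were 6034, 1163 and 12439 TPM in CBPAAp53ΔIEC replicates 1 to 3. Ang4 and Fabp2 entered these sums with at least 299 and 613 TPM in every library. The part of the small intestine genes in the results was not tested.

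The stretch of 250 bases before the start of the gene is printed for 3 of the genes, namely Vcan, Chsy1, whose spread between mice was nearest to that of Vcan, and Chst11. Of the 5 genes that passed the filter, Chst11 alone was called by edgeR over all 12 libraries. The call was in CBPWTp53ΔIEC vs. CBPWTp53-floxed, where 3.15% of all genes were called. Nothing is read from it, since the genes were chosen with the values known. The sequences are those of RefSeq for GRCm38.p6, printed 5′ to 3′ on the strand of the gene, and capitals mark GC boxes (GGGCGG, or CCGCCC for the same box on the other strand). Vcan lies on the minus strand, and its stretch is chr13:89742513-89742762. That of Chsy1 is chr7:66109242-66109491 and that of Chst11 is chr10:82985247-82985496, both on the plus strand.
Vcan: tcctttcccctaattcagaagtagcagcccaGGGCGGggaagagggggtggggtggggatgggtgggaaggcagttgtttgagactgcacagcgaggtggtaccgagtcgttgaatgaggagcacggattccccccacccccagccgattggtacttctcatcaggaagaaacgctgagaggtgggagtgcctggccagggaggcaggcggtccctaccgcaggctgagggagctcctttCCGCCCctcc
Chsy1: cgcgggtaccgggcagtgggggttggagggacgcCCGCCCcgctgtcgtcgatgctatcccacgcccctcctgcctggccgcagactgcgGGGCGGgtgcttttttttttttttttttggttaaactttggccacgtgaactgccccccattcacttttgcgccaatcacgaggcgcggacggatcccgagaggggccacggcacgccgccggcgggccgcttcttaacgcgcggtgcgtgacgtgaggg
Chst11: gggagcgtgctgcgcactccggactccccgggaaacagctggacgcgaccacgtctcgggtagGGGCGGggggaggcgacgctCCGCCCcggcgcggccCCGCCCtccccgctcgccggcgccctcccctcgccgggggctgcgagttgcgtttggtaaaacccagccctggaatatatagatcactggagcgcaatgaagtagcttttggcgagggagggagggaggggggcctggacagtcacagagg

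Of the 10 genes, 6 had a promoter in the RefSeq table (Adamts4, Adamts5, Adamts15 and Csgalnact1 did not). A GC box on either strand was found in 6 of these 6 and in 32.7% of all 32851 promoters searched over the same length. The 6 windows were also richer in G and C, at 62.4% to 71.2% beside a median of 52.4% over all promoters. Of the other motifs, Vcan held a CCAAT box (CCAAT, in 33.8% of all promoters) and Chst11 held none. Chsy1 held a CCAAT box, an E-box (CACGTG, in 6.02% of all promoters) and the core of a CRE site (TGACG, in 17.8%), the last of which was also found in Adamts1 and Adamts9. Adamts1 was the gene among the 6 with a TATA box (TATAA, in 22.8%). The letters of an AP-1 site (TGANTCA, in 6.75% of all promoters), a TCF/LEF site (CTTTGA, in 13.8%) and the p53 consensus decamer (in 7.13%) were in none of the 6 windows on either strand. Matches to such short motifs are descriptions of the sequence and say nothing of binding.

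Vcan was the lowest of the 5 genes that passed the filter, and Xylt2 the highest. Mean TPM over the 12 libraries was 12.9 for Xylt2, 6.55 for Chst11, 3.66 for Adamts15, 2.21 for Chsy1 and 0.543 for Vcan, beside a median of 12.3 TPM over all genes tested. Vcan ranked 14093 of 14610 by this level. The other 5 genes were hardly read at all. Summed over 12 libraries, Adamts1 had 4 reads, Adamts4 had 19, Adamts5 had 2, Adamts9 had 45 and Csgalnact1 had 2.

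For most steps of the pathway, a single gene of the family held most of the level. Adamts15 was the most abundant of 19 ADAMTS genes in 12 of 12 libraries and held a median of 54.0% of their summed TPM, with a range of 40.9% to 71.5%. The next were Adamts10 and Adamts17, at 0.685 and 0.624 TPM. Xylt2, which starts the chain, held 82.9% of the TPM of the pair it forms with Xylt1 (2.84 TPM). The transfer of the first N-acetylgalactosamine was represented by Csgalnact2 at 4.53 TPM, beside 0.0062 TPM for Csgalnact1.

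Among the chain polymerases the order was different, since Chsy1, the chondroitin synthase, was below its partner subunits Chpf2 at 17.5 TPM and Chpf at 8.55 TPM, and Chsy3 had 0 reads. Chst11, which sulfates position 4 of N-acetylgalactosamine, held 86.5% of the TPM of the 3 sulfotransferases for this position. Of the hyaluronan-binding relatives of versican, Bcan was read at 0.444 TPM, and Acan and Ncan had 0 reads in every library. A count of 0 allows up to 3 reads, which is 0.166 to 0.268 CPM (counts scaled to library size) in these libraries and covers counting error only.

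**Figure D1:**
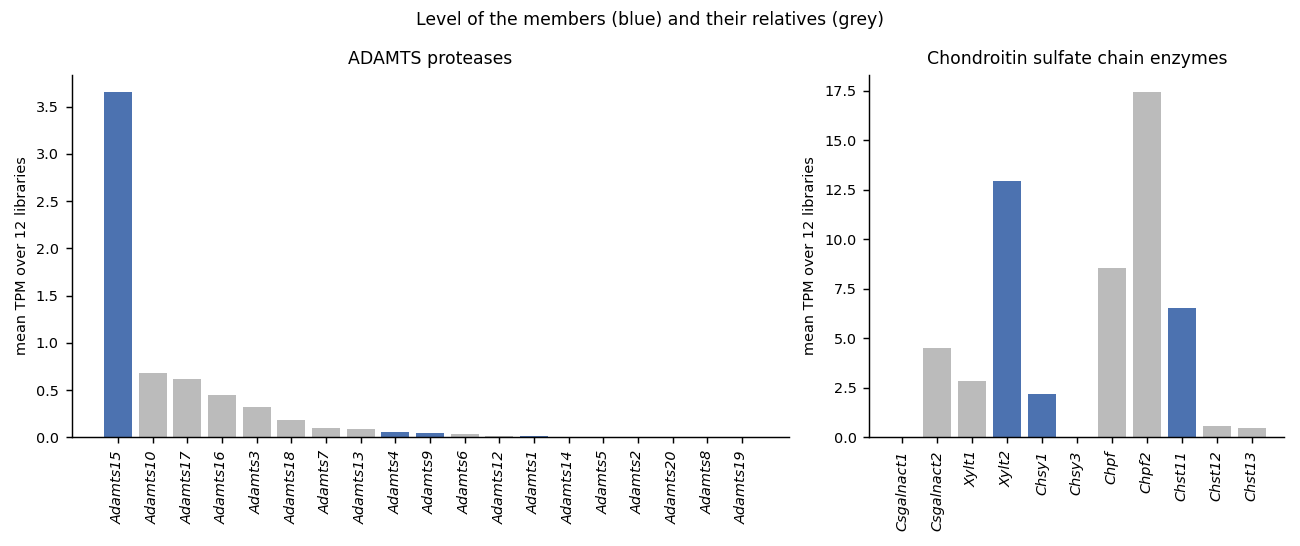
Bars give the mean TPM (linear axis from 0) over 12 libraries of 19 ADAMTS genes on the left and of 11 chain enzymes on the right, with 9 of the 10 described genes in blue (all but Vcan) and their relatives in grey. Adamts15 at 3.66 TPM stands above all other ADAMTS genes, while Chsy1 at 2.21 TPM is below Chpf and Chpf2.

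Vcan (ENSMUSG00000021614, GRCm38 chromosome 13, 89655312 to 89742509, minus strand) was lowest in CBPAAp53-floxed crypts. Its TPM was 0.536, 0.813 and 0.725 in CBPWTp53-floxed replicates 1 to 3, and 0.250, 0.203 and 0.254 in CBPAAp53-floxed replicates 1 to 3. In CBPWTp53ΔIEC replicates 1 to 3 it was 0.302, 0.670 and 0.810, and in CBPAAp53ΔIEC replicates 1 to 3 it was 0.552, 0.878 and 0.523. The 3 CBPAAp53-floxed libraries were below the other 9, and the nearest to them was CBPWTp53ΔIEC replicate 1, which stood apart from its group. These levels rested on 18 to 22 reads per library in CBPAAp53-floxed mice and on 22 to 77 in the others.

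By group, Vcan had 0.691 ± 0.141 TPM (SD, n = 3) in CBPWTp53-floxed, 0.651 ± 0.197 (SD, n = 3) in CBPAAp53ΔIEC, 0.594 ± 0.262 (SD, n = 3) in CBPWTp53ΔIEC and 0.236 ± 0.0286 (SD, n = 3) in CBPAAp53-floxed crypts. The first 3 of this order did not differ beyond their spread. The log2 fold change was -1.44 (standard error 0.31) in CBPAAp53-floxed vs. CBPWTp53-floxed and 1.33 (0.31) in CBPAAp53ΔIEC vs. CBPAAp53-floxed, and neither pair of groups overlapped. It was 0.12 (0.29) in CBPAAp53ΔIEC vs. CBPWTp53ΔIEC and -0.23 (0.29) in CBPWTp53ΔIEC vs. CBPWTp53-floxed, where the groups overlapped.

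In bulk crypts, fewer cells that express Vcan and less Vcan RNA per cell cannot be told apart. The collagen genes of stroma, Col1a1, Col1a2 and Col3a1, had at most 5 reads in any library, and the sum of the stroma markers was 8.17 to 9.61 TPM in CBPWTp53-floxed, 5.10 to 8.67 in CBPAAp53-floxed, 5.06 to 7.30 in CBPWTp53ΔIEC and 6.28 to 7.14 in CBPAAp53ΔIEC crypts. Of the 18 stroma markers, 1 had no read in any library. Small intestine markers summed to 3298 to 5376 TPM in CBPWTp53-floxed and 7059 to 13338 TPM in CBPAAp53-floxed crypts. Ang4 and Fabp2 carried most of these sums and had at least 299 and 613 TPM in every library, so the sum does not measure small intestine tissue alone. The ranges of Ang4 and of Fabp2 overlapped between both groups. So did the ranges of Fabp6, Apoa1, Sis and Anpep. Those of Defa24 (0 against 1.92 to 471 TPM), Lyz1 (0 to 0.361 against 0.796 to 123) and Mmp7 (4.00 to 6.31 against 6.40 to 15.3) did not overlap and were higher in CBPAAp53-floxed crypts. The part of these markers in the level of Vcan was not tested.

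Among the proteases, Adamts15 alone had enough reads to be compared between groups. Adamts15, a secreted protease of the hyalectan-cleaving branch (ENSMUSG00000033453, chromosome 9, 30899155 to 30922452, minus strand), had 2.60, 3.23 and 3.01 TPM in CBPWTp53-floxed replicates 1 to 3. It had 4.56, 1.82 and 1.60 TPM in CBPAAp53-floxed, 1.88, 5.61 and 7.95 in CBPWTp53ΔIEC and 4.66, 4.64 and 2.33 in CBPAAp53ΔIEC replicates 1 to 3. The CBPWTp53-floxed mice lay close together, the other groups were spread widely, and the groups overlapped in all 4 comparisons. These levels rested on 86 to 422 reads per library.

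The log2 fold change of Adamts15 was -0.07 (standard error 0.43) in CBPAAp53-floxed vs. CBPWTp53-floxed, with a 95% interval of -1.03 to 0.88, and 0.45 (0.43) in CBPAAp53ΔIEC vs. CBPAAp53-floxed. In CBPWTp53ΔIEC vs. CBPWTp53-floxed it was 0.77 (0.43), and 1.08 without the 3 libraries that stood apart, where it met the threshold for a call. That fit was chosen after seeing the data and also called more of all genes (counts given below). Nothing is read from the call, since Adamts15 was chosen with the values known. CBPWTp53ΔIEC replicate 1 was the lowest of its group at 1.88 TPM and also the library with the highest sum of small intestine markers.

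The remaining proteases were at or near 0. Adamts1, which is induced by growth signals and in ovulation, had 1 read in 4 of the 12 libraries and 0 in the rest. Adamts5, known for cleaving aggrecan in cartilage, had 1 read in 2 libraries, both CBPWTp53-floxed. Adamts4, the other well-known aggrecan-cleaving protease, had 0 to 6 reads per library. Adamts9 (chromosome 6, 92772699 to 92943492, minus strand) had 14 reads in CBPAAp53-floxed replicate 1 and 0 to 7 in the other 11 libraries, and it shares exon bases with other genes. No fold change was computed for these genes.

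Chsy1 encodes a chondroitin synthase that extends the chain. Chsy1 (ENSMUSG00000032640, chromosome 7, 66109515 to 66173798, plus strand) had 1.80, 2.27 and 2.40 TPM in CBPWTp53-floxed and 1.97, 1.18 and 1.39 TPM in CBPAAp53-floxed replicates 1 to 3. It had 0.998, 2.20 and 3.79 TPM in CBPWTp53ΔIEC and 2.93, 3.27 and 2.28 TPM in CBPAAp53ΔIEC replicates 1 to 3. These levels rested on 21 to 81 reads per library. The lowest library was CBPWTp53ΔIEC replicate 1 and the highest was replicate 3 of the same group. The CBPAAp53ΔIEC libraries were all above the CBPAAp53-floxed libraries, as for Vcan, whereas the CBPAAp53-floxed and CBPWTp53-floxed libraries overlapped. The log2 fold change was 0.78 (standard error 0.31) in CBPAAp53ΔIEC vs. CBPAAp53-floxed and -0.41 (0.31) in CBPAAp53-floxed vs. CBPWTp53-floxed, with a 95% interval of -1.09 to 0.27 for the latter. Gm26827, an antisense gene, shares exon bases with Chsy1, and whether counting used the strand is not given in the sources used here.

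Chst11 (ENSMUSG00000034612, chromosome 10, 82985498 to 83195900, plus strand) differed most between CBPWTp53ΔIEC and CBPWTp53-floxed crypts. It had 5.82, 4.06 and 5.12 TPM in CBPWTp53-floxed and 4.95, 5.83 and 5.04 TPM in CBPAAp53-floxed replicates 1 to 3. With p53 deleted it had 6.60, 7.80 and 10.3 TPM in CBPWTp53ΔIEC and 9.30, 6.23 and 7.51 TPM in CBPAAp53ΔIEC replicates 1 to 3. Between 136 and 292 reads lay behind each value. On the TPM scale the 6 p53ΔIEC libraries were above the 6 p53-floxed libraries. In CPM, the scale of the counts from which fold changes were fitted, CBPWTp53ΔIEC and CBPWTp53-floxed libraries did not overlap, but CBPAAp53ΔIEC and CBPAAp53-floxed libraries did. The log2 fold change was 0.74 (standard error 0.18) in CBPWTp53ΔIEC vs. CBPWTp53-floxed and 0.40 (0.18) in CBPAAp53ΔIEC vs. CBPAAp53-floxed. Between CBP genotypes it was 0.21 (0.18) with p53 and -0.13 (0.18) without p53. The call of Chst11 in CBPWTp53ΔIEC vs. CBPWTp53-floxed was lost with any of CBPWTp53-floxed replicates 1, 2 and 3, CBPAAp53-floxed replicate 3 or CBPWTp53ΔIEC replicates 2 and 3 left out, while its log2 fold change lay between 0.62 and 0.87.

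Xylt2 (ENSMUSG00000020868, chromosome 11, 94663851 to 94677515, minus strand) had nearly the same level in all groups. Its TPM was 12.9 ± 0.182 (SD, n = 3) in CBPWTp53-floxed, 12.9 ± 2.02 (SD, n = 3) in CBPAAp53-floxed, 13.0 ± 1.41 (SD, n = 3) in CBPWTp53ΔIEC and 12.9 ± 1.30 (SD, n = 3) in CBPAAp53ΔIEC crypts. Over the 12 libraries it ran from 10.7 to 14.6 TPM and from 220 to 399 reads, with the lowest and the highest TPM both in CBPAAp53-floxed mice. Its log2 fold change in CBPAAp53-floxed vs. CBPWTp53-floxed was 0.11, with a 95% interval of -0.22 to 0.44, and the other 3 comparisons gave -0.13 to 0.06. Csgalnact1, the other N-acetylgalactosaminyltransferase of chain start, had 1 read in 2 libraries and 0 in the other 10.

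**Figure D2:**
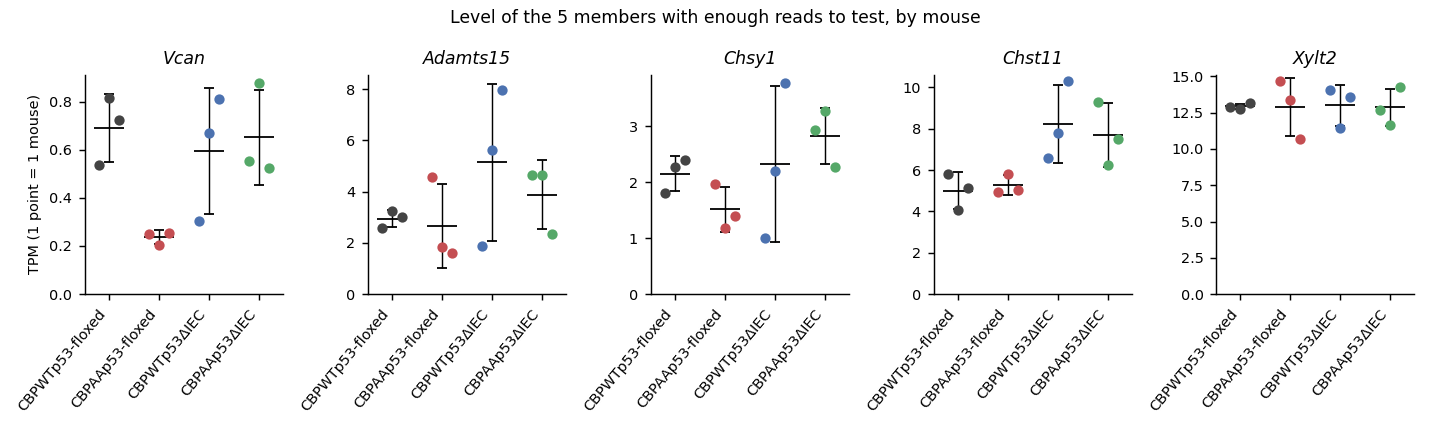
Each point is the TPM of 1 mouse (linear axes from 0, a scale of its own for each gene), horizontal lines are group means and whiskers are 1 SD with n = 3. The 3 CBPAAp53-floxed mice have the lowest Vcan of all 12, at 0.203 to 0.254 TPM, while Xylt2 stays between 10.7 and 14.6 TPM.

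A gene was called where the Benjamini-Hochberg adjusted p over all 14610 genes was under 0.05 and the log2 fold change exceeded 0.5 in either direction. In CBPAAp53-floxed vs. CBPWTp53-floxed, edgeR called 0 of the 5 genes with enough reads, beside 0% of all genes, while DESeq2 called 1, Vcan. Vcan alone had groups that did not overlap, which held for 19.4% of all genes. In CBPAAp53ΔIEC vs. CBPAAp53-floxed, edgeR called 0 of 5, beside 0.0274%, and Vcan and Chsy1 had groups that did not overlap, beside 15.0%. Vcan was called there by DESeq2, and by edgeR without CBPAAp53ΔIEC replicate 3 and without the 3 libraries that stood apart. In both comparisons, DESeq2 and the fit without the 3 libraries also called more of all genes than the main fit (counts given below). In CBPAAp53ΔIEC vs. CBPWTp53ΔIEC, edgeR called 0 of 5, beside 0.00684%, and 0 had groups that did not overlap, beside 9.27%. In CBPWTp53ΔIEC vs. CBPWTp53-floxed, Chst11 was called and higher, beside 2.29% of all genes called and higher and 0.856% called and lower, and it alone of the 5 had groups that did not overlap, beside 30.8%. Nothing is read from these counts, since the genes were chosen with the values known. Comparisons that share a group share its error, so that a low value of the CBPAAp53-floxed libraries enters the log2 fold changes of Vcan in both comparisons that use them.

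As a set, the 5 genes had a median log2 fold change of -0.07 in CBPAAp53-floxed vs. CBPWTp53-floxed, 0.45 in CBPAAp53ΔIEC vs. CBPAAp53-floxed, -0.08 in CBPAAp53ΔIEC vs. CBPWTp53ΔIEC and 0.08 in CBPWTp53ΔIEC vs. CBPWTp53-floxed. Over all genes tested, these medians lay between -0.01 and 0.01. The difference between the effect of p53 deletion in CBPAA and in CBPWT mice was 1.56 (standard error 0.42) for Vcan, 0.70 (0.44) for Chsy1, -0.19 (0.22) for Xylt2, -0.32 (0.60) for Adamts15 and -0.34 (0.25) for Chst11 on the log2 scale. 0 of the 5 were called for this interaction, beside 0.00684% of all genes.

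**Figure D3:**
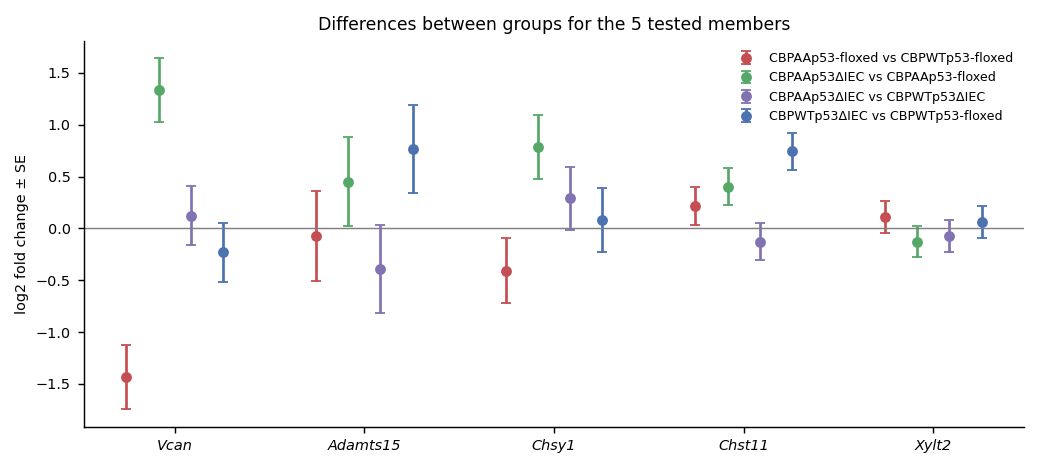
Points are log2 fold changes fitted with edgeR over 12 libraries and whiskers are 1 standard error, for the 5 genes with enough reads in 4 comparisons of 3 mice against 3. Vcan has values of -1.44 and 1.33 in the comparisons that involve CBPAAp53-floxed mice, and the values of Xylt2 lie between -0.13 and 0.11.

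The other genes of the pathway were described by lists that hold 133 further genes, 84 of which were tested. In CBPAAp53-floxed vs. CBPWTp53-floxed, 0 of the 84 were called by edgeR, and at an unadjusted p under 0.05 there were 1 higher and 5 lower, beside 8.04% of all genes in either direction, while DESeq2 also called 0. In CBPAAp53ΔIEC vs. CBPAAp53-floxed, edgeR called 0 of the 84 with 8 higher and 1 lower at an unadjusted p under 0.05 (12.6% of all genes), and DESeq2 called 1, Hmmr. In CBPAAp53ΔIEC vs. CBPWTp53ΔIEC, both tools called 0 of the 84, and 0 were higher and 2 lower at an unadjusted p under 0.05 (3.57% of all genes). For the interaction both tools also called 0, with 5 higher and 3 lower at an unadjusted p under 0.05 (10.3% of all genes). In CBPWTp53ΔIEC vs. CBPWTp53-floxed, 3 of the 84 rose and 0 fell, beside 3.15% of all genes called in either direction, and 14 were higher and 10 lower at an unadjusted p under 0.05 (20.9% of all genes).

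The 3 of the 84 genes called higher with p53 deletion in CBPWT mice were Fbln1, Hmmr and Papss2. Their number is near the 3.15% of all genes called in this comparison, and nothing is read from it. The lists were chosen with earlier results of these data known, so the adjusted p-values of these genes are given as a description. Fbln1 encodes fibulin-1, a matrix protein that binds versican, and had 0.411 to 0.524 TPM in CBPWTp53-floxed and 1.34 to 1.63 TPM in CBPWTp53ΔIEC mice (log2 fold change 1.80, standard error 0.36, adjusted p = 0.0288 in edgeR). Hmmr encodes a hyaluronan receptor that also acts at the mitotic spindle, and had 2.67 to 4.10 and 5.77 to 18.6 TPM in these groups (log2 fold change 1.97, standard error 0.47, adjusted p = 0.0487 in edgeR). Papss2 makes the sulfate donor for sulfotransferases such as Chst11, and had 343 to 379 and 477 to 641 TPM (log2 fold change 0.63, standard error 0.16, adjusted p = 0.0441 in edgeR). Both groups were fully separate for all 3 genes in TPM. In CPM the groups did not overlap for 31 of the 84 genes, beside 30.8% of all genes. The calls of all 3 were lost with any of CBPWTp53-floxed replicates 1, 2 and 3 or CBPWTp53ΔIEC replicates 2 and 3 left out. Fbln1 was called in 12 of 18 alternatives, Hmmr in 7 of 19 and Papss2 in 10 of 19. Without the 3 libraries that stood apart, 11 of the 84 genes were called, in a fit that also called more of all genes (counts given below).

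By list, the partners of hyaluronan and versican had 16 of 32 genes tested and a median log2 fold change of -0.05 in CBPAAp53-floxed vs. CBPWTp53-floxed and 0.10 in CBPAAp53ΔIEC vs. CBPAAp53-floxed. The most abundant of them were Itgb1, an integrin subunit that binds matrix, at 146 TPM and Hyal2, which cleaves hyaluronan, at 38.0 TPM. Of the other ADAMTS genes, their activators and inhibitors, 15 of 32 were tested, with medians of -0.03 and 0.19 in these comparisons. Lrp1, which takes up ADAMTS proteases from the matrix, had 30.8 TPM, and Furin, which removes their propeptides, had 26.9 TPM.

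Genes for linker and chondroitin sulfate synthesis were the best covered, with 22 of 28 tested and medians of -0.06 and 0.04. Papss2 at 457 TPM and Ugdh, which makes the sugar precursor UDP-glucuronic acid, at 280 TPM were the most abundant of these. All 7 genes for chondroitin sulfate breakdown were tested, with medians of 0.03 and -0.08, and Hexa, a hexosaminidase subunit, was the most abundant of them at 126 TPM. Other proteoglycan core proteins had 13 of 20 genes tested with medians of -0.09 and 0.06, and the membrane proteoglycans Sdc4 and Sdc1 stood at 256 and 179 TPM, beside 0.543 TPM for Vcan. Heparan sulfate synthesis had 11 of 14 genes tested with medians of 0.01 and -0.03, led by Hs6st1 and Ndst1, a pair of sulfation enzymes, at 48.1 and 22.1 TPM.

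**Figure D4:**
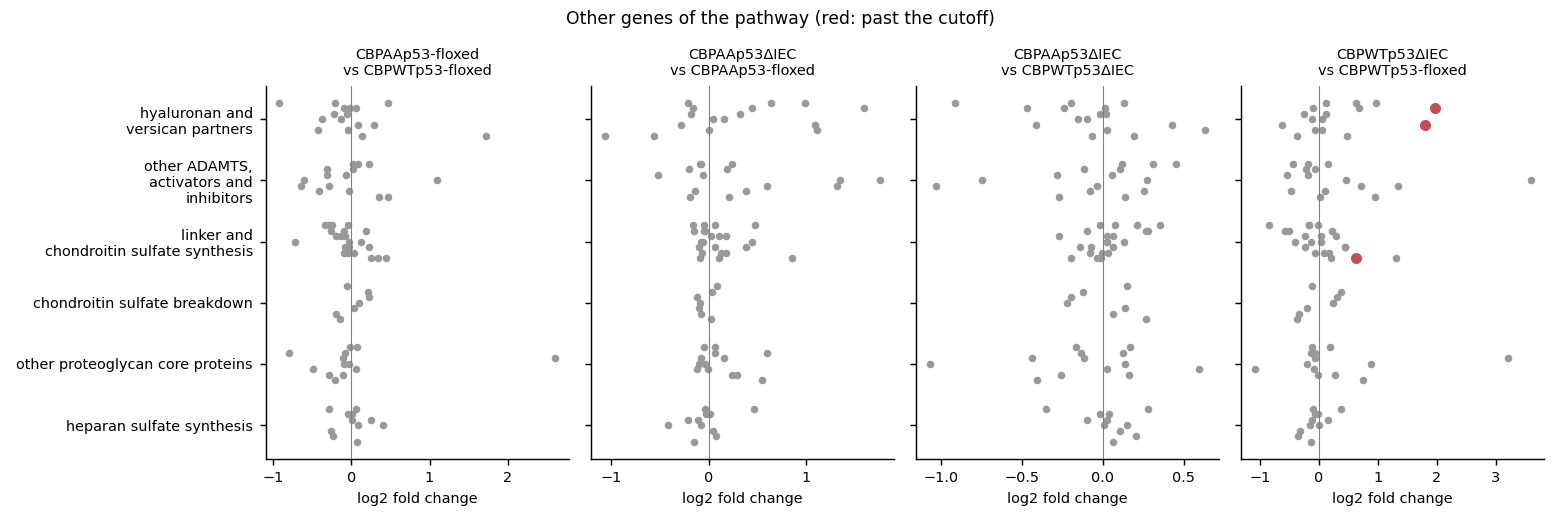
Each point is the log2 fold change of 1 of the 84 tested genes of 6 pathway lists (rows, with points offset for visibility) in 4 comparisons of 3 mice against 3, and each panel has its own horizontal scale. The 3 red points, in the right panel alone, are Hmmr, Fbln1 and Papss2, which rose by 1.97, 1.80 and 0.63.

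The spread between mice of the same group, which the choice of genes did not use, was compared with that of Vcan over 12 libraries. Log2 CPM values were taken as deviations from the group mean, and Vcan was shuffled within groups in 1296 ways for an exact two-sided permutation test with Benjamini-Hochberg adjustment over 9 genes. Chsy1 deviated with Vcan, with Pearson's r = 0.81 (exact permutation p = 0.0147, adjusted p = 0.0660) and Spearman's rho = 0.78 (exact permutation p = 0.0139, adjusted p = 0.0625). It lay on the same side of its group mean as Vcan in 10 of 12 libraries. Xylt2 deviated against Vcan, with r = -0.85 (exact permutation p = 0.0100, adjusted p = 0.0660) and rho = -0.76 (exact permutation p = 0.0123, adjusted p = 0.0625), and lay on the same side in 1 of 12 libraries. Neither relation passed the adjustment over the 9 genes, which counts the 5 with few reads. With adjustment over the 4 genes with enough reads, chosen after seeing the data, both passed (adjusted p = 0.0293 for both values of r, exact permutation test).

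For Adamts15, r was 0.60 and rho 0.52 (exact permutation p = 0.128 and 0.184, adjusted p = 0.350 and 0.400), and for Chst11 r was -0.44 and rho -0.46 (exact permutation p = 0.189 and 0.222, adjusted p = 0.350 and 0.400). The 5 genes with few reads had adjusted p-values from 0.350 to 0.889 for r. Without the 2 libraries farthest from the median of Vcan, CBPWTp53ΔIEC replicate 1 and CBPAAp53ΔIEC replicate 2, r was 0.70 for Chsy1, -0.73 for Xylt2, 0.36 for Adamts15 and -0.46 for Chst11.

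The libraries that stood apart carried much of these values. All 3 were below their group mean for Vcan, Chsy1 and Adamts15 and above it for Xylt2, and without them r was 0.43 for Chsy1, -0.64 for Xylt2 and -0.13 for Adamts15. On the log2 scale of TPM + 0.1, r was 0.88 for Chsy1 (adjusted p = 0.0278, exact permutation test, with a range of 0.0278 to 0.5625 over the alternatives) and -0.41 for Xylt2. The sum of small intestine markers had r = -0.72 with Vcan within groups (exact permutation p = 0.0995, adjusted p = 0.498 over 5 marker lists), and that of stroma markers r = -0.03. The former sum includes Ang4 and Fabp2, which were abundant in every library, and so does not measure small intestine tissue alone. Pdgfrb and Vim, at means of 4.04 and 2.15 TPM, carried most of the stroma sum, and 3 of its 18 genes passed the filter. Whether tissue content accounts for the relation of Chsy1 with Vcan was not tested.

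**Figure D5:**
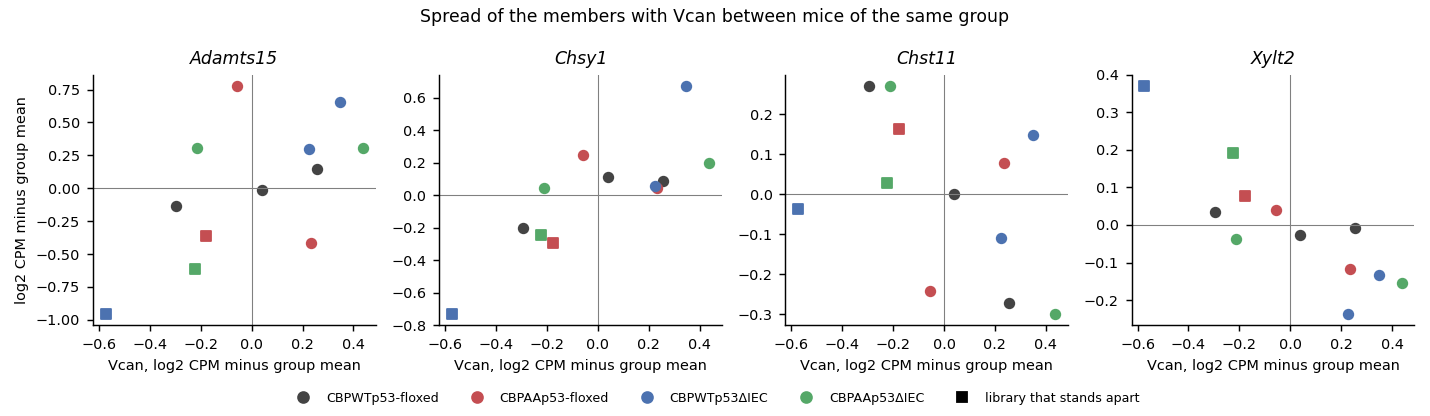
Each point is 1 of 12 libraries, plotted by its log2 CPM minus the group mean for Vcan (horizontal axis) and for another gene (vertical axis, a scale of its own in each panel), with colours for groups and squares for the 3 libraries that stood apart. Chsy1 rises with Vcan (r = 0.81) and Xylt2 falls (r = -0.85), and the square at the far left is CBPWTp53ΔIEC replicate 1.

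Over all 12 libraries with group differences left in, the likeness of each tested gene to Vcan was given as Pearson's r of log2 CPM, as a description. Chsy1 had r = 0.75 and ranked 310 of 14610 genes, Adamts15 had 0.50 (rank 2363), Chst11 0.03 (rank 7369) and Xylt2 -0.64 (rank 13644). The 6 genes most like Vcan were Senp8 (0.95), Arhgap1 (0.93), Zbed4 (0.92), Gemin5 (0.91), 1300014J16Rik (0.91) and Rap2a (0.90). The 3 most opposite were Gnptg (-0.95), Phykpl (-0.94) and Msto1 (-0.93). None of these 9 genes belongs to the lists of matrix or chain genes.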

How the data were processed

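Crypt RNA of 12 mice was sequenced, and the groups were taken from the labels. The authors deposited a single table with raw read counts per gene and library and with TPM per gene and library. Its 15 columns of the authors' own comparisons (log2 fold changes and p-values) were not used. The submitters' processing notes name fastp 0.20.0, FastQC 0.11.9, HISAT2 2.1.0, SAMtools 1.9 and featureCounts of Subread 2.0.1 on GRCm38. Whether counting used the strand is not given in the sources used here.

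The quasi-likelihood test of edgeR 4.0.16 (R 4.3.3, robust, TMM) was fitted to the counts of all 12 libraries with the 4 groups as 1 factor, after filterByExpr at a minimum count of 10. Adjusted p-values are Benjamini-Hochberg values over all genes tested. Standard errors were derived from the F statistic and intervals are at 95%. For correlations, a prior count of 2 was used in log2 CPM. TPM was used to compare levels between genes. Gene positions came from GENCODE M21 and promoters from RefSeq. Scripts were tested on simulated data. Plots were made in Python 3.11.15 (matplotlib 3.10.9).

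The genes and lists were chosen with earlier results of these data known. All 10 genes were named, with every called gene of the pathway lists, the 2 most abundant genes of each list, and the 6 genes most like and 3 most unlike Vcan. Of the genes this rule names, 1 is not reported here. The alternatives were DESeq2 1.42.0, its size factors, 2 other filters, the replicate number as a block, the compared groups alone and each library left out. Leaving out the 3 libraries that stand apart, dropping the fold cutoff, and adjusting correlations over the 4 genes with enough reads were chosen after seeing the data. The labels call the replicates biological, and depth limits genes with few reads.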

Additional observations from a re-analysis of the deposited data

How the results depend on the processing

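In CBPAAp53ΔIEC vs. CBPAAp53-floxed, where edgeR called 0 of the other pathway genes, DESeq2 called 1 and the fit without the 3 libraries that stand apart called 6, and with each library left out in turn 0 to 1 were called (1, Hmmr, without CBPAAp53ΔIEC replicate 3). In CBPWTp53ΔIEC vs. CBPWTp53-floxed, where 3 were called, DESeq2 called 6, the compared groups alone gave 5, the replicate block gave 0 and the fit without the 3 libraries that stand apart gave 11. Leaving out each library in turn gave 0 to 5, with 0 with any of CBPWTp53-floxed replicates 1, 2 and 3 or CBPWTp53ΔIEC replicates 2 and 3 left out, 1 without CBPAAp53-floxed replicate 3 and 5 without CBPWTp53ΔIEC replicate 1. The cause was not tested.

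Over all genes, the same settings called 863, 723, 32 and 1705 genes in this comparison beside 460, and DESeq2 and the fit without the 3 libraries called 73 and 1324 in CBPAAp53ΔIEC vs. CBPAAp53-floxed beside 4 and 33 and 32 in CBPAAp53-floxed vs. CBPWTp53-floxed beside 0. Vcan was called by DESeq2 in CBPAAp53-floxed vs. CBPWTp53-floxed and in CBPAAp53ΔIEC vs. CBPAAp53-floxed, and in the latter by edgeR without CBPAAp53ΔIEC replicate 3 and without the 3 libraries. Its log2 fold change lay between -1.57 and -1.30 in the former and between 1.07 and 1.46 in the latter over 19 alternatives each. Chst11 was called in 12 of 19 alternatives in CBPWTp53ΔIEC vs. CBPWTp53-floxed (log2 fold change 0.62 to 0.87), and the replicate block, among others, ended the call. Adamts15 was called in this comparison without the 3 libraries (log2 fold change 1.08). Nothing is read from the calls of Vcan, Chst11 and Adamts15, since these genes were chosen with the values known. Of 18 pairs of libraries with the same replicate number, 3 had correlated deviations above 0.1 (range -0.53 to 0.55). The libraries that stood apart carry different replicate numbers and weigh on these values. The check can therefore not decide whether the samples were paired.

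For deviations within groups, r of Adamts15 with Vcan turned to -0.13 without the 3 libraries that stand apart, and r of Chst11 turned to 0.043 on the log2(TPM + 0.1) scale. On that scale r of Chsy1 was 0.88 and passed the threshold. With adjustment over the 4 genes with enough reads, r of Chsy1 (0.81) and of Xylt2 (-0.85) passed it. With each library left out in turn, r lay between 0.25 and 0.77 for Adamts15 and between 0.59 and 0.86 for Chsy1, and both passed the threshold without CBPAAp53-floxed replicate 3. The cause was not tested. Fbln1 had no value with at least 10 counts in every library, and no fold change was available for the 5 genes below the filter. The few reads of Vcan, 18 to 77 per library, limit its precision.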
